A study of Sus scrofa with 25 samples.

Results

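Skeletal muscle of pigs fed 10000 IU of vitamin D3 per kg of feed was compared with muscle of control pigs, whose feed held 0 IU/kg, in 8 libraries against 8. These 16 libraries came from a series of 25 pigs, with 1 library per pig, in which 8 others received 5000 IU/kg. All pigs were crossbred, from Polish Large White sows mated to Landrace boars. They lived in individual pens with straw bedding and were put on the diets at day 85 of life for 90 days. The feeds were matched for protein and energy and differed in vitamin D3. Pigs of 1 litter were spread over the diets, but the litter, the sex and the muscle taken are not in the labels used here. The p-values therefore measure the spread between pigs with litter left inside it. Libraries were made with QuantSeq FWD, a kit for the 3' ends of mRNA, so a count does not scale with transcript length.

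A ninth library of the 10000 IU/kg diet, replicate 27 (replicates are numbered by animal), was left out, chosen by its counts of fat transcripts. These counts were 15866 for ADIPOQ (the adipocyte hormone adiponectin), 60164 for TRARG1 (a regulator of GLUT4 trafficking in fat), 62608 for FASN (fatty acid synthase) and 107124 for SCD (stearoyl-CoA desaturase). In the other 24 libraries these genes had 5 to 538, 2 to 209, 269 to 1799 and 345 to 5136 counts. The highest ADIPOQ and TRARG1 counts among the 16 compared libraries, 441 and 209, were in replicate 20 of the 10000 IU/kg diet. These values describe the choice and are no result.

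The 16 libraries held 3310507 to 15177976 gene counts each, and 28.4% to 70.6% of the reads in their files were assigned to genes. Replicates 2 and 7 of the 10000 IU/kg diet had the lowest shares, 28.4% and 38.2%, and no control library was under 45.1%. Muscle genes were present in each library. The skeletal muscle actin ACTA1 made up 2.77% to 21.4% of control counts and 5.40% to 20.1% of counts at 10000 IU/kg. Transcripts typical of liver were also present in each library, with ALB (albumin) at 2133 to 7330 CPM (counts per 1e+06 counts, scaled to library size by TMM) in the controls and 2570 to 13065 CPM at 10000 IU/kg. The summed liver list reached 47537 CPM in replicate 2 and 54964 CPM in replicate 7, against at most 37349 CPM in a control. A value in round brackets marked w/o 2,7 is the same log2 quantity without these 2 libraries, given where it moved by over 1.5 times or turned sign. It is not given here for ND1, ND2, ND6, ATP6, IER3 and ZFP36.

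Vitamin D3 is hydroxylated in the liver, with CYP2R1 as a main enzyme, and then in the kidney by CYP27B1 to the active hormone calcitriol. Calcitriol binds the vitamin D receptor VDR, which pairs with a retinoid X receptor on DNA, and CYP24A1, a classical target of the receptor, degrades the hormone. In muscle the vitamin is studied for its part in calcium handling, mitochondrial function, growth and repair.

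No gene passed the test between the diets. Of 10256 genes tested with edgeR's quasi-likelihood test, 0 (0%) had a Benjamini-Hochberg adjusted p under 0.05, and the smallest adjusted p was 0.575, for IFNGR2. Without adjustment, 228 genes (2.22%) had a p under 0.05, with 149 higher (1.45%) and 79 lower (0.77%) at 10000 IU/kg, where a uniform spread of p-values would give 512.8. The same fit by DESeq2 gave 1 gene past the adjusted threshold (0.00975%), IFNGR2, and 337 at an unadjusted p under 0.05, and limma voom gave 0 and 230. The count of 228 went to 135 without replicate 2 of the 10000 IU/kg diet and to 368 without replicate 13. Log2 fold changes were above 0 for 51.2% of genes and below 0 for 48.8%, with a median of 0.01. The typical standard error (SE) was 0.37 on the log2 scale, and the common biological coefficient of variation was 0.571. For 4598 genes (44.8%) the 95% interval of the change lay within 2-fold either way. For the other genes the interval reached past 2-fold on at least 1 side.

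**Figure D1:**
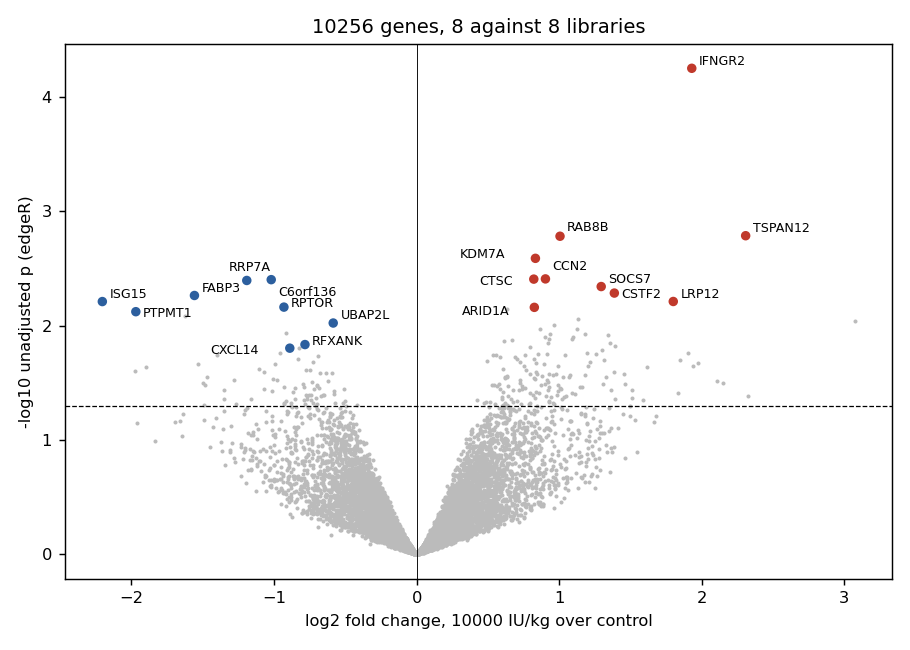
Each point is 1 tested gene, with the log2 fold change of 10000 IU/kg over control on the x axis and -log10 of the unadjusted p of edgeR's test on the y axis; the dashed line marks the unadjusted threshold of 0.05. The 10 named genes with the smallest p among those higher at 10000 IU/kg are red and 9 among those lower are blue, and IFNGR2 stands alone at the top.

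IFNGR2, the signal-transducing chain of the interferon-gamma receptor (ENSSSCG00000034378), stood furthest from 0 by its p. Its level ran from 2.31 to 7.65 CPM in the controls, with a median of 3.84 CPM, and from 5.15 to 36.6 CPM at 10000 IU/kg, with a median of 11.9 CPM. The groups overlapped through replicate 20 alone of the 10000 IU/kg diet, and 7 of its 8 libraries were above the highest control. The log2 fold change was 1.93 ± 0.39 (SE, n = 8 and 8; 95% interval 1.12 to 2.74), with an unadjusted p of 5.6e-05 by edgeR's quasi-likelihood test. DESeq2 gave 1.96 and an adjusted p of 0.00991, while voom gave 1.74 and an adjusted p of 0.988. The reads behind this were few, 20 to 59 counts in a control and 48 to 181 counts at 10000 IU/kg. Replicates 2, 21 and 7 held the highest levels. They also had the lowest assigned shares of the treated libraries, 28.4%, 47.6% and 38.2%. Without replicates 2 and 7 the log2 fold change was 1.50, and with the assigned share as a covariate it was 1.52. Leaving out 1 library at a time gave 1.64 to 2.10. The median IFNGR2 level at 5000 IU/kg, where no test was made, was 9.61 CPM, and the left-out replicate 27 had 0.304 CPM.

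The levels of 3 of the 10256 genes (0.0293%) did not overlap between the diets, 1 higher (0.00975%) and 2 lower (0.0195%) at 10000 IU/kg. RAB8B, a small GTPase of membrane traffic (ENSSSCG00000026571), had 5.94 to 11.9 CPM in the controls (median 10.4) and 12.5 to 38.9 CPM at 10000 IU/kg (median 15.0). RAB8B had a log2 fold change of 1.01 ± 0.28, or 0.66 without replicates 2 and 7, which held its highest levels. PTPMT1, a mitochondrial phosphatase of cardiolipin synthesis (ENSSSCG00000013226), had 3.50 to 9.58 CPM in the controls (median 4.31) and 0 to 2.25 CPM at 10000 IU/kg (median 1.76). It had 0 counts in replicates 1 and 7 of the treated pigs and at most 26 in the others, with a log2 fold change of -1.97 ± 0.68. PWP2, a ribosome biogenesis factor (ENSSSCG00000029627), was named after its values were seen. It had 3.76 to 7.70 CPM in the controls and 0 to 3.54 CPM at 10000 IU/kg, with a log2 fold change of -1.40 ± 0.55. None of the 3 had an adjusted p below 0.995 by edgeR.

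Other genes with small unadjusted p-values and higher levels included CCN2, the connective tissue growth factor. CCN2 had 8.28 to 29.1 CPM in the controls (median 16.2) and 16.8 to 45.2 CPM at 10000 IU/kg (median 30.9), a log2 fold change of 0.90 ± 0.28. All 8 treated libraries were above the control median of CCN2, and the groups overlapped. CTSC, the lysosomal protease cathepsin C, had 16.6 to 45.04 CPM in the controls and 26.4 to 69.7 CPM in treated libraries, and a log2 fold change of 0.82 ± 0.26. KDM7A, a histone demethylase, had medians of 13.6 and 22.6 CPM and a log2 fold change of 0.83 ± 0.25, with 6 treated libraries above the highest control. ARID1A, a subunit of SWI/SNF chromatin remodelling complexes, stood at 0.83 ± 0.28. SOCS7, a member of the family of suppressors of cytokine signalling, stood at 1.29 ± 0.41, which became 0.79 without replicate 2 (w/o 2,7: 0.79). TSPAN12, LRP12 and CSTF2 had larger fitted changes of 2.31 ± 0.65, 1.80 ± 0.60 and 1.39 ± 0.45 (w/o 2,7: 0.80), but from few reads. In the controls the highest counts of these 3 genes were 28, 13 and 41.

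Among the genes with lower levels, FABP3 and ISG15 owed most of their size to 1 control each. FABP3, the fatty acid binding protein of heart and muscle, ran from 63.1 to 1182 CPM in the controls (median 164) and from 35.3 to 170 CPM at 10000 IU/kg (median 93.0). Its log2 fold change of -1.56 ± 0.51 became -0.67 without control replicate 16, the library at 1182 CPM. ISG15, a ubiquitin-like protein induced by interferon, ran from 2.35 to 77.5 CPM in the controls (median 5.21) and from 0 to 6.89 CPM at 10000 IU/kg (median 2.58). Its log2 fold change of -2.20 ± 0.73 became -0.68 without control replicate 14, the library at 77.5 CPM.

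The remaining lower genes did not lean on a single library in this way. RPTOR, the raptor subunit of the mTORC1 growth kinase, had 6.01 to 18.3 CPM in the controls (median 13.6) and 3.93 to 11.9 CPM at 10000 IU/kg (median 6.49). Its log2 fold change was -0.93 ± 0.31, all 8 treated libraries were under the control median, and leaving out 1 library at a time gave -1.09 to -0.84. C6orf136 stood at -1.02 ± 0.32 and RRP7A, a ribosomal RNA processing factor, at -1.19 ± 0.37. In both, 6 treated libraries were under the lowest control. UBAP2L, an RNA-binding protein, stood at -0.58 ± 0.21, with 5 of 8 under the lowest control. RFXANK, a regulator of MHC class II transcription, and CXCL14, a chemokine, stood at -0.78 and -0.89. RPTOR and RRP7A were high in the left-out replicate 27, at 31.4 and 20.4 CPM, and keeping that library moved their values to -0.45 and -0.62.

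**Figure D2:**
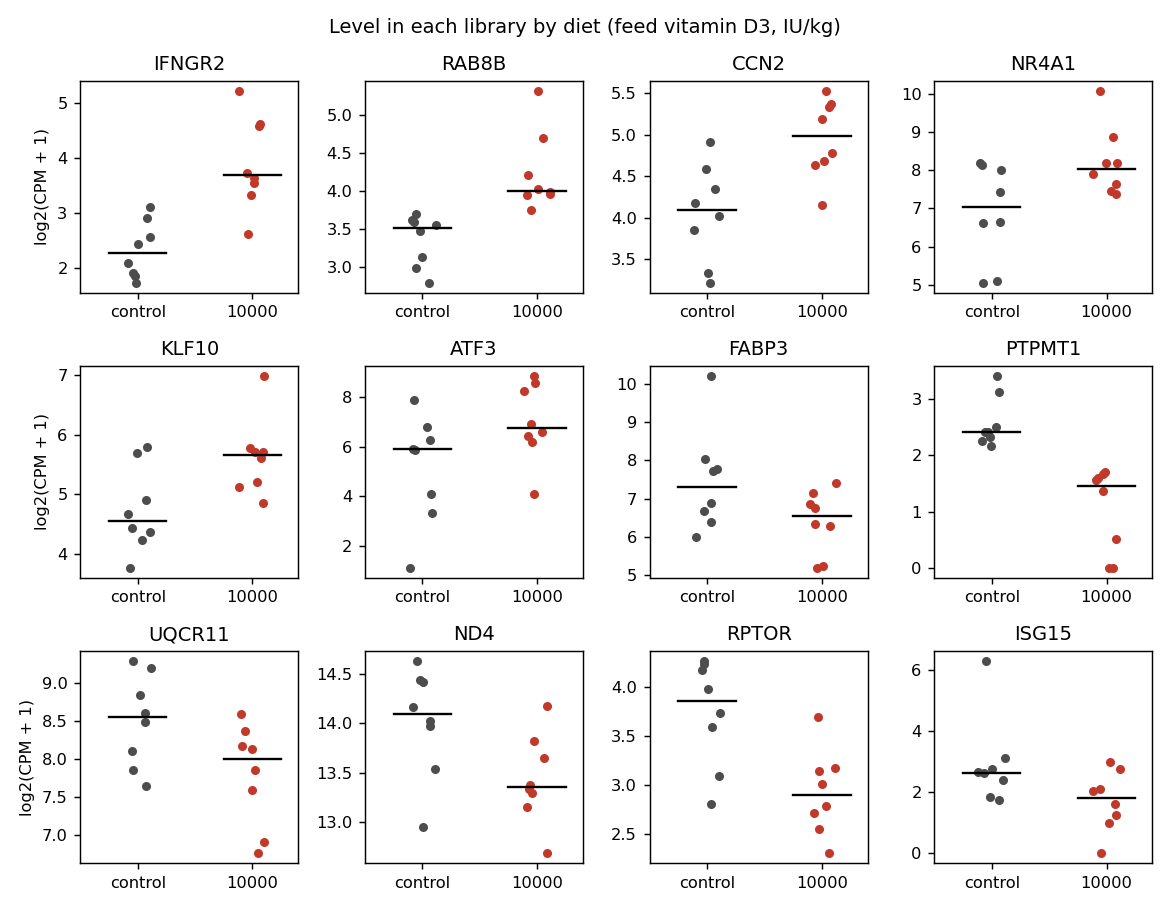
Level of 12 genes in each library as log2(CPM + 1), for 8 control and 8 libraries at 10000 IU/kg; each dot is 1 pig and the line is the group median. RAB8B and PTPMT1 do not overlap between diets, the others do, and 1 control stands far above the rest in FABP3 (1182 CPM) and in ISG15 (77.5 CPM).

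The genes of the vitamin D system were at or near the limit of detection for the receptor and the enzymes that make and degrade the hormone. VDR was too low to be tested, with 21 counts pooled over the 8 controls and 21 over the 8 treated libraries. Pooled, this was 0.312 CPM (95% exact Poisson interval 0.193 to 0.476) against 0.287 CPM (0.177 to 0.438), and 4 libraries of each diet held a read. CYP24A1 had 0 counts in all 16 libraries, which allows a pooled level of up to 0.0213 CPM (3 counts), and CYP27B1 had 1 read, in a control. These pooled levels are unscaled and cover counting error only. In a split chosen after the counts were seen, 17 of the treated VDR counts were in replicate 26, and the other 7 treated libraries held 4 (0.0688 CPM, 95% exact interval 0.0188 to 0.176). Without its highest library, replicate 9, the control pool held 13 (0.218 CPM, 95% exact interval 0.116 to 0.374). For CYP24A1, 3 counts correspond to 0.0445 CPM in the pooled controls and 0.0409 CPM in the pooled treated libraries, and differences below these levels were not detectable at this depth.

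Partners and cofactors of the receptor were measured better. RXRA, the retinoid X receptor alpha, had 125 to 208 CPM in the controls (median 156) and 102 to 230 CPM at 10000 IU/kg (median 170). RXRA had a log2 fold change of 0.08 ± 0.22 (w/o 2,7: 0.20) with a 95% interval of -0.36 to 0.53, so a change of 2-fold in either direction lay outside the interval. PDIA3, a protein disulfide isomerase also described as a membrane receptor for calcitriol, stood at 0.20 ± 0.34, and at -0.30 without replicates 2 and 7. CYP2R1 stood at 0.87 ± 0.84 (w/o 2,7: 0.47) from 0 to 36 counts per control library and 7 to 39 at 10000 IU/kg, too few to place the change. Of the 23 listed genes of vitamin D metabolism and signalling, 17 could be tested and 14 of these were higher, with a median of 0.16, beside 51.2% of all genes higher and a median of 0.01. None had an unadjusted p under 0.05, where 2.22% of all genes did, and 10 had an interval within 2-fold. Without replicates 2 and 7 the median was -0.05 with 10 of 17 lower. The coactivator NCOA2 then stood at -0.12, from 0.54 with all 8 treated libraries.

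**Figure D3:**
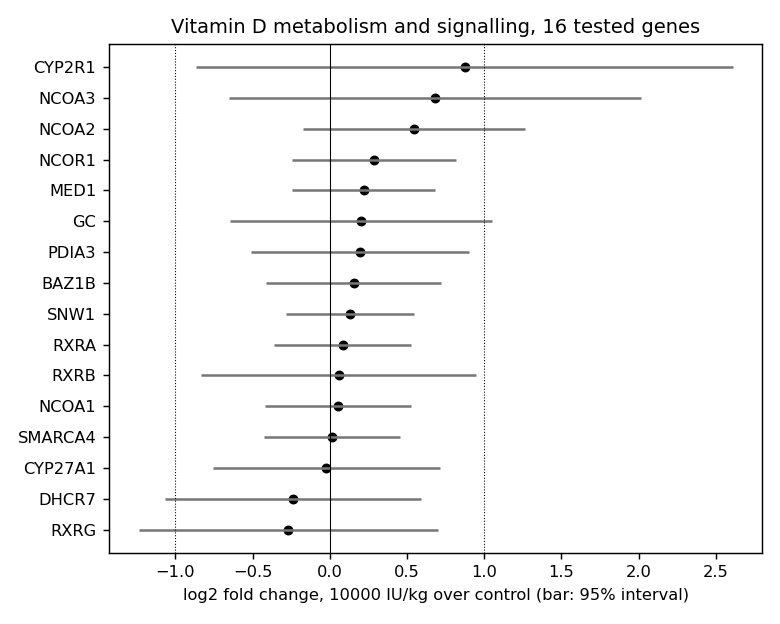
Log2 fold change of 10000 IU/kg over control for 16 genes of the vitamin D system; points are edgeR estimates, bars 95% intervals, and dotted lines mark 2-fold. Each bar crosses 0, and the narrow bar of RXRA runs from -0.36 to 0.53 while that of CYP2R1 runs from -0.86 to 2.61.

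Of 24 textbook target genes of vitamin D, 8 were tested, 6 of them higher, with a median of 0.16 (w/o 2,7: 0.04) and none at an unadjusted p under 0.05. CA2, a carbonic anhydrase, stood at 0.87 ± 0.51, and at 0.47 without replicate 21. GADD45A, a stress-response gene, stood at 0.74 ± 0.54, and at 0.42 without replicate 1. The mean log2 CPM of these 8 genes was lower at 10000 IU/kg, 4.15 ± 0.37 (SD, n = 8) against 4.33 ± 0.56 in the controls, so the mean level and the median change differed in sign.

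Genes of mitochondrial energy supply leaned to lower values. Of 61 tested nuclear genes of oxidative phosphorylation, which is carried out by the respiratory chain and ATP synthase, 59 had lower fitted levels in treated pigs. Their median log2 fold change was -0.33, beside 48.8% of all genes lower. The lean ran through each complex, with 28 of 29 genes of complex I, 4 of 4 of complex II, 8 of 8 of complex III and cytochrome c, 10 of 10 of complex IV and 9 of 10 of complex V. Their medians were -0.29, -0.14, -0.36, -0.38 and -0.26. Each change was small against its error: 1 of the 61 had an unadjusted p under 0.05, beside 0.77% of all genes lower at that level, and 38 had an interval within 2-fold.

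That gene was UQCR11, a small subunit of complex III. UQCR11 had 199 to 626 CPM in the controls (median 373) and 107 to 384 CPM at 10000 IU/kg (median 255), a log2 fold change of -0.70 ± 0.31 (w/o 2,7: -0.45). The groups overlapped between 199 and 384 CPM, with 3 treated libraries under the lowest control. NDUFS3, a core subunit of complex I, stood at -0.54 ± 0.26 (w/o 2,7: -0.35), with medians of 123 and 105 CPM. Chosen after their values were seen, NDUFA6 of complex I, CYC1 (cytochrome c1) and COX5A of complex IV stood at -0.61 ± 0.30 (w/o 2,7: -0.37), -0.56 ± 0.29 and -0.55 ± 0.36 (w/o 2,7: -0.23). All 8 treated libraries were under the control median of CYC1.

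The size of this lean depended on the 2 libraries with few assigned reads. The mean log2 CPM of the 61 genes was 6.12 in replicate 2 and 6.11 in replicate 7, while the other 6 treated libraries had 7.13 ± 0.19 (SD) and the controls 7.20 ± 0.41 (SD, n = 8). Without replicates 2 and 7, 45 of the 61 genes were lower and the median was -0.09. With each library's assigned share as a covariate the median was -0.15. Leaving out 1 library at a time gave -0.40 to -0.19, the latter without control replicate 16.

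The 13 protein genes of the mitochondrial DNA were all lower in the fit, with a median of -0.47, and all 13 stayed lower without replicates 2 and 7, with a median of -0.23. Transcripts of this genome are made as long precursors, so the 13 are not independent. ND4, a core subunit of complex I, had 7873 to 25486 CPM in the controls (median 17554) and 6545 to 18570 CPM at 10000 IU/kg (median 10450). The change in ND4 was -0.60 ± 0.31 (log2), and 7 treated libraries were under the control median. CYTB, the cytochrome b of complex III, stood at -0.59 ± 0.34 (w/o 2,7: -0.35) and was under the control median in 8 of 8. ND2, ND1 and ATP6 stood at -0.66, -0.60 and -0.60, and ND6, encoded on the opposite strand from the others, at -0.08. None of the 13 had an unadjusted p under 0.05. As a share of all gene counts the 13 made up 13.1% ± 2.91 (SD, n = 8) in the controls and 10.1% ± 1.90 (SD, n = 8) at 10000 IU/kg, with 7 of 8 treated libraries under the control mean. The two-sided exact permutation test of this share gave p = 0.0328, and 0.262 after adjustment over the 8 library measures compared. In bulk tissue, fewer cells or mitochondria of a kind and less RNA in each cannot be told apart.

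**Figure D4:**
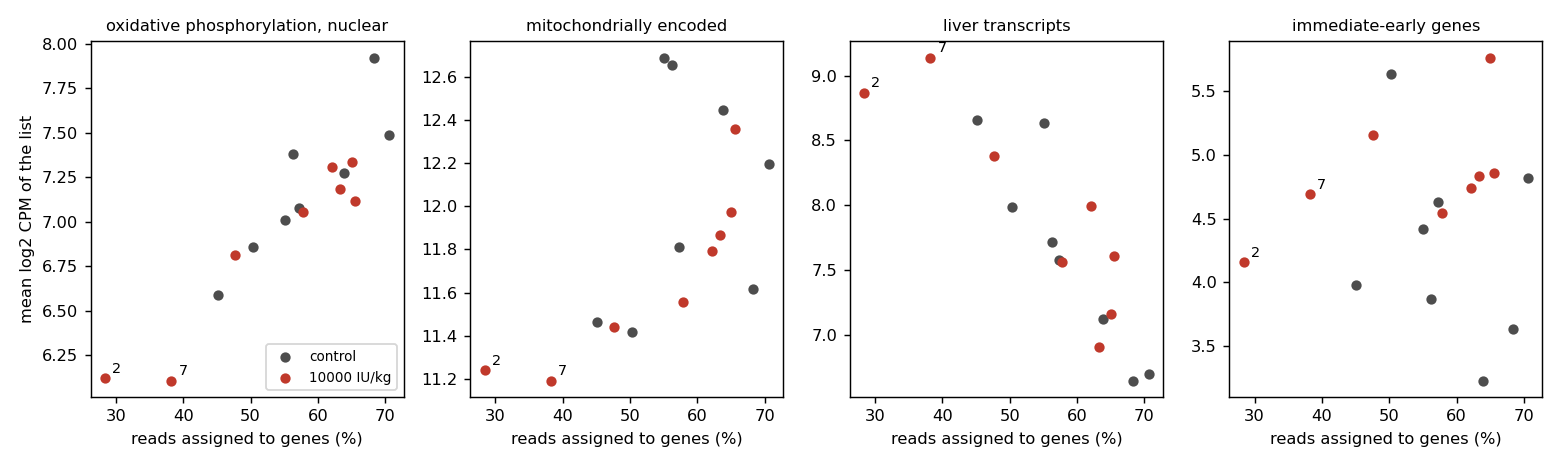
Mean log2 CPM of 4 gene lists in each library (y axis) against the percentage of reads assigned to genes (x axis), for 8 control libraries (grey) and 8 at 10000 IU/kg (red), with replicates 2 and 7 numbered. These 2 libraries lie at the low end for oxidative phosphorylation, at 6.12 and 6.11, and at the high end for liver transcripts, at 8.87 and 9.14.

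With all 8 treated libraries, fuel oxidation leaned the same way by smaller amounts. Of 42 tested genes that take up or oxidise fatty acids, 30 were lower, with a median of -0.22. Without replicates 2 and 7 that median was -0.18, beside -0.09 for the nuclear genes of oxidative phosphorylation. FABP3 and SLC27A4, a fatty acid transporter with acyl-CoA synthetase activity, were lower at an unadjusted p under 0.05, 2 of 42 beside 0.77% of all genes. SLC27A4 had 2.92 to 10.6 CPM in the controls (median 4.41) and 1.08 to 4.79 CPM at 10000 IU/kg (median 2.29), a log2 fold change of -1.07 ± 0.45 from at most 91 counts. The left-out replicate 27 held 1197 CPM of FABP3 and 18.1 CPM of SLC27A4. With it kept, FABP3 and SLC27A4 each stood at -0.37, and 24 of 43 genes of the list were lower, with a median of -0.15. The mean log2 CPM of the fatty acid list was 5.16 ± 0.18 (SD, n = 8) in the controls and 4.95 ± 0.20 (SD, n = 8) at 10000 IU/kg, with 7 of 8 treated libraries under the control mean. Of 26 genes of the TCA cycle and pyruvate dehydrogenase 20 were lower, with a median of -0.17 that became 0.04 without replicates 2 and 7. GOT1, the cytosolic aspartate aminotransferase, stood at -0.71 ± 0.34, and at -0.28 without control replicate 16. IDH3A, a catalytic subunit of isocitrate dehydrogenase, stood at -0.48 ± 0.33 and at -0.18 without replicates 2 and 7.

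Contractile genes varied widely within each diet. Among 14 fast-twitch genes 11 had lower values (median -0.24), as did 8 of 9 slow-twitch genes (median -0.38). Leaving out replicates 2 and 7, 9 of 14 and 5 of 9 were lower, with medians of -0.16 and -0.07. The mean log2 CPM of the slow-twitch list was then higher in treated pigs, 7.59 against 7.39 in the controls. Of the 6 treated libraries left, 2 were under the control mean of this list. With all 8 treated libraries, no member of either list had an unadjusted p under 0.05. TNNC1, the slow troponin C, had 173 to 2598 CPM in the controls (median 855) and 142 to 983 CPM at 10000 IU/kg (median 574), a log2 fold change of -0.79 ± 0.49 (w/o 2,7: -0.48). The top of its control range was replicate 16, without which TNNC1 stood at -0.40 and the slow-twitch median at -0.10. TNNC2 and TNNT3, the fast troponins C and T, stood at -0.61 ± 0.36 and -0.56 ± 0.37. ACTA1 stood at -0.15 ± 0.46 (w/o 2,7: 0.06), with an interval of -1.11 to 0.80. Of 24 sarcomere and Z-disc genes 16 were lower, with a median of -0.16 that became 0.11 without replicates 2 and 7. SMYD1, a methyltransferase of myosin assembly, stood at -1.21 ± 0.61, and at -0.12 without control replicate 10, which held 190 CPM against a control median of 17.8. ACTN2, the Z-disc protein alpha-actinin, stood at -0.41 ± 0.37 (w/o 2,7: -0.15).

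Muscle genes of calcium handling and excitation were divided between higher and lower values. Of 44 tested genes 23 were higher and 21 lower, with a median of 0.01. Without replicates 2 and 7, 28 of 44 were higher, with a median of 0.11, and with replicate 27 kept 27 of 44 were lower, with a median of -0.11. PPP3CA, the catalytic subunit of the calcium-dependent phosphatase calcineurin, alone had an unadjusted p under 0.05. This was 1 of 44 genes, beside 1.45% of all genes higher at that level. PPP3CA had 53.1 to 81.6 CPM in the controls (median 68.8) and 67.1 to 174 CPM at 10000 IU/kg (median 89.4). The log2 fold change was 0.58 ± 0.23 with 5 of 8 treated libraries above the highest control, and 0.44 without replicates 2 and 7. The calcium pumps ATP2A1 of fast fibres and ATP2A2 of slow fibres stood at -0.56 ± 0.54 and -0.27 ± 0.39 (w/o 2,7: 0.02), and the calcium buffer PVALB at -0.65 ± 0.49. The muscle sodium channel SCN4A stood at -0.52 ± 0.26 (w/o 2,7: -0.35).

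Glycolysis and glycogen genes were also divided, 16 higher and 18 lower of 34, with a median of -0.04, but without replicates 2 and 7 the split was 23 higher and 11 lower, with a median of 0.11. PHKB, a regulatory subunit of phosphorylase kinase, had 67.7 to 120 CPM in the controls (median 95.9) and 51.4 to 282 CPM at 10000 IU/kg (median 166). Its log2 fold change was 0.69 ± 0.27, with 6 treated libraries above the highest control and 1 under the lowest. PPP1R3A, which tethers a phosphatase to glycogen, stood at 0.92 ± 0.50, and at -0.02 without replicate 2 (w/o 2,7: 0.12). Of 10 creatine and energy buffering genes 7 were lower, with a median of -0.15 (w/o 2,7: -0.09), among them AK1 (adenylate kinase) at -0.48 ± 0.42 (w/o 2,7: -0.24), ADSS1 of the purine nucleotide cycle at -0.35 ± 0.32 (w/o 2,7: -0.20) and CKM (muscle creatine kinase) at -0.33 ± 0.40 (w/o 2,7: -0.06).

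Insulin and growth signalling held genes on both sides. Of 27 insulin signalling genes 13 were higher and 14 lower, with a median of -0.01 (w/o 2,7: -0.02). RPTOR and TSC2, a brake on mTORC1, were lower at an unadjusted p under 0.05 (2 of 27, beside 0.77% of all genes). IGF1R, the receptor of insulin-like growth factor, was higher at that level (1 of 27, beside 1.45%). TSC2, whose values are given because they were seen to be low, stood at -0.93 ± 0.41, with medians of 13.5 and 9.19 CPM. IGF1R had 0.162 to 7.70 CPM in the controls (median 2.62) and 1.82 to 27.9 CPM at 10000 IU/kg (median 3.69). Replicates 2 and 7 held its highest levels, and without them the log2 fold change of 1.46 ± 0.62 became 0.37. MSTN, myostatin, the brake on muscle growth, stood at 0.29 ± 0.49 (95% interval -0.72 to 1.31) from 11 to 179 counts per library.

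Of 32 myogenesis and growth genes 16 were higher and 16 lower, with a median of 0.04 (w/o 2,7: 0.08), and IGFBP4, a binding protein of insulin-like growth factors, stood at 0.49 ± 0.34 and at 0.05 without replicates 2 and 7. Among 52 protein degradation and atrophy genes, 32 were lower, with a median of -0.16 (w/o 2,7: -0.04) and none at an unadjusted p under 0.05. SQSTM1, the autophagy receptor p62, and PSMB7, a proteasome subunit, stood at -0.58 ± 0.35 (w/o 2,7: -0.33) and -0.42 ± 0.27. Of 46 cytosolic ribosomal protein genes 37 were lower, with a median of -0.13 that became 0.06 without replicates 2 and 7. In 44 of these 46 the interval lay within 2-fold, beside 44.8% of all genes. RPS15 of the small subunit stood at -0.39 ± 0.32 (w/o 2,7: -0.24).

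Immediate-early genes, transcription factors and regulators that respond within minutes to nerve input, stretch or handling, leaned to higher values. Of 19 tested genes 15 were higher, with a median of 0.43 beside 51.2% of all genes higher, and 4 had an unadjusted p under 0.05, beside 1.45% of all genes higher at that level. Without replicates 2 and 7 the count was 17 of 19 and the median 0.48. The mean log2 CPM of the list was 4.28 ± 0.76 (SD, n = 8) in the controls, from 3.23 to 5.63, and 4.84 ± 0.47 (SD, n = 8) at 10000 IU/kg, from 4.16 to 5.76. The ranges overlapped and 7 of 8 treated libraries were above the control mean. Leaving out 1 library at a time gave medians of 0.17, without replicate 20 of the 10000 IU/kg diet, to 0.66, without control replicate 3.

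NR4A1, an orphan nuclear receptor, had 32.2 to 293 CPM in the controls (median 136) and 164 to 1080 CPM at 10000 IU/kg (median 263). All 8 treated libraries were above the control median and 2 above the highest control. NR4A1 had a log2 fold change of 1.20 ± 0.47, and 0.72 without replicate 20, the highest library. KLF10, a transcription factor induced by TGF-beta, had 12.5 to 54.2 CPM in the controls (median 22.5) and 27.9 to 126 CPM at 10000 IU/kg (median 49.5), a log2 fold change of 0.90 ± 0.33. Without replicate 21, the highest library, it was 0.59. Chosen after their values were seen, NR4A2 stood at 1.16 ± 0.52, IER5 at 0.99 ± 0.45, ATF3 at 1.45 ± 0.72 and FOS at 1.28 ± 0.79. ATF3 ran from 1.15 to 236 CPM within the controls alone, and FOS from 3.77 to 226 CPM. IER3 and ZFP36 were on the other side, at -0.59 and -0.52.

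Heat-shock proteins and chaperones were evenly divided, 14 higher and 14 lower of 28, with a median of -0.01 (w/o 2,7: 0.01). DNAJB4, a cochaperone, had 17.6 to 67.6 CPM in the controls (median 27.9) and 26.9 to 150 CPM at 10000 IU/kg (median 52.4), a log2 fold change of 0.92 ± 0.35. HSP90B1, an endoplasmic reticulum chaperone, stood at 0.41 ± 0.25. HSP70.2, the inducible heat-shock protein of the pig, was not on the list and was named after its values were seen. HSP70.2 had 115 to 421 CPM in the controls (median 220) and 83.6 to 1580 CPM at 10000 IU/kg (median 337), a log2 fold change of 1.34 ± 0.49. Replicates 20, 13, 26 and 30 were above the highest control and the other 4 lay inside or under the control range. Of 16 circadian clock genes 12 were higher, with a median of 0.32 that became 0.11 without replicates 2 and 7, and none had an unadjusted p under 0.05. CLOCK, an activator in the clock, stood at 0.45 ± 0.27 (w/o 2,7: 0.11). Of 25 antioxidant genes 12 were higher and 13 lower, with a median of -0.04 (w/o 2,7: -0.01), and GPX3 and PRDX2 stood at -0.65 ± 0.38 (w/o 2,7: -0.42) and -0.52 ± 0.31.

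Fat genes did not lean once the fat-rich library was out. Of 27 tested adipocyte and lipogenesis genes 13 were higher and 14 lower, with a median of -0.03, against 1.02 when replicate 27 was kept. That library was chosen on such genes, so this difference describes the choice. The 4 genes that chose it had levels of 5.19 to 28.5 CPM in the controls and 1.90 to 47.3 CPM at 10000 IU/kg for ADIPOQ, with a log2 fold change of 0.61 ± 0.50, or 3.21 with replicate 27. TRARG1, FASN and SCD stood at 0.51 ± 0.64, 0.25 ± 0.31 (w/o 2,7: 0.05) and 0.49 ± 0.36 (w/o 2,7: 0.07). TRARG1 stood at -0.34 without replicate 20, in which it reached 22.4 CPM. SREBF1, the transcription factor of lipogenesis, had 11.3 to 57.5 CPM in the controls (median 30.5) and 23.0 to 111 CPM at 10000 IU/kg (median 56.6), a log2 fold change of 0.76 ± 0.32. PLIN5, a lipid droplet protein of oxidative tissue, stood at -1.35 ± 0.64 and at -0.83 without control replicate 16.

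**Figure D5:**
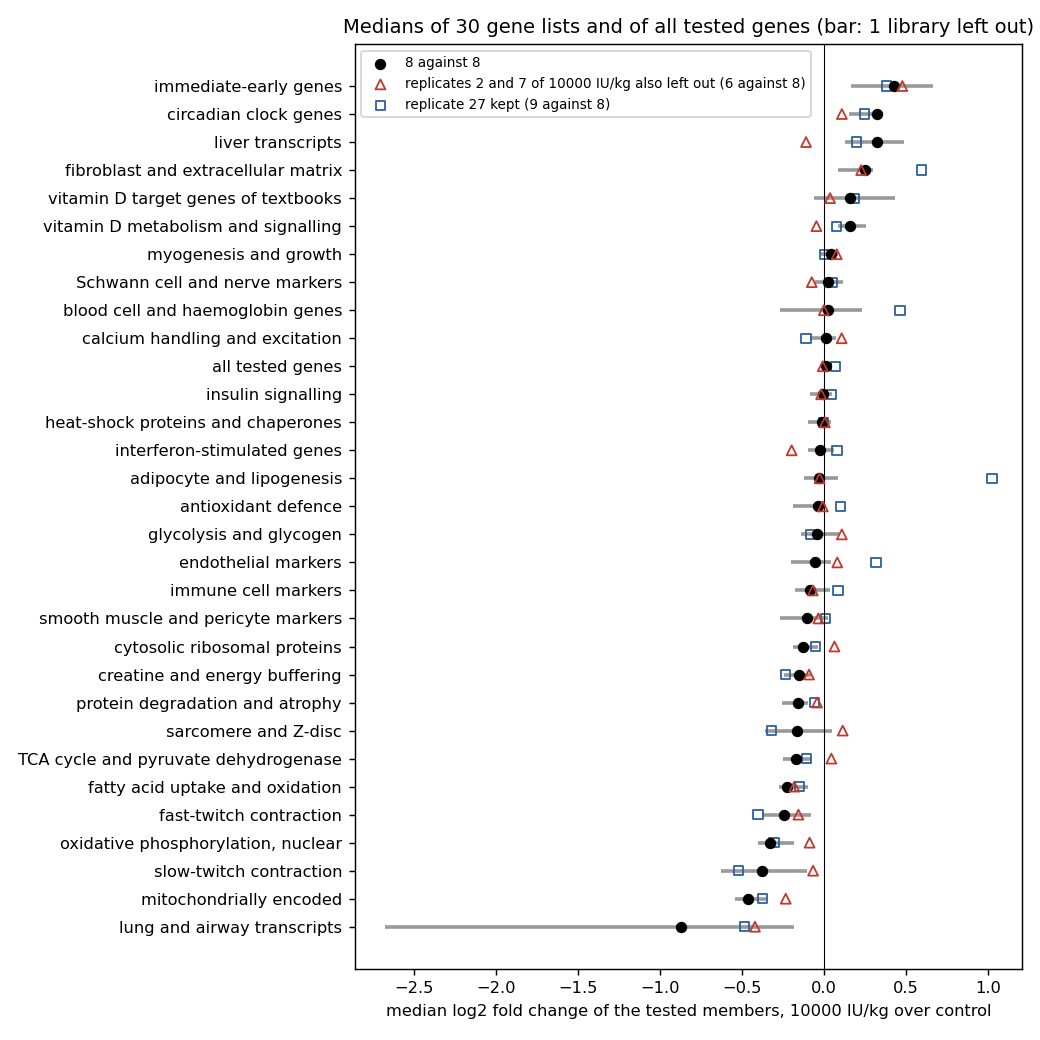
Median log2 fold change of the tested members of 30 gene lists and of all tested genes (x axis); dots are the 8 against 8 comparison, grey bars the range when 1 library is left out, triangles the values without replicates 2 and 7, and squares the values with replicate 27 kept. The adipocyte list moves from -0.03 to 1.02 with replicate 27, and oxidative phosphorylation from -0.33 to -0.09 without replicates 2 and 7.

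Of 37 fibroblast and extracellular matrix genes 26 were higher, with a median of 0.25, and 0.60 with replicate 27 kept. Leaving out 1 library at a time gave medians of 0.08, without replicate 30 of the 10000 IU/kg diet, to 0.30. By voom the median was 0.06. CCN2 and, named after its values were seen, CCN1 (0.79 ± 0.36) were higher at an unadjusted p under 0.05 (2 of 37, beside 1.45% of all genes). Both encode secreted matricellular proteins. MMP14, a membrane-bound matrix protease, was lower at that level (1 of 37, beside 0.77% of all genes). MMP14 stood at -0.83 ± 0.33, with 4.50 to 16.2 CPM in the controls (median 12.5) and 4.05 to 10.7 CPM at 10000 IU/kg (median 5.57). All 8 treated libraries were under the control median of MMP14, and replicate 27 held 106 CPM, which turned the value to 0.62 when kept. The mean log2 CPM of the matrix list was 4.62 ± 0.47 (SD, n = 8) at 10000 IU/kg and 4.54 ± 0.22 (SD, n = 8) in the controls. In this list 3 treated libraries were above the highest control and 3 under the lowest.

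Markers of other cell types had medians near 0 in the comparison of 8 against 8. Of 15 endothelial genes 7 were higher and 8 lower (median -0.06), and of 13 smooth muscle and pericyte genes 10 were lower (median -0.11). These medians were 0.08 and -0.04 without replicates 2 and 7. ROBO4 and PECAM1 of the endothelium stood at 0.72 ± 0.41 (w/o 2,7: 0.43) and -0.33 ± 0.26 (w/o 2,7: -0.18), NOTCH3 of pericytes at -0.79 ± 0.38, and TPM2, a tropomyosin that slow muscle fibres also make, at -0.81 ± 0.42. Of 22 immune cell genes 15 were lower (median -0.09), and of 30 interferon-stimulated genes 14 were higher and 16 lower (median -0.03). Of these 30 interferon-stimulated genes 24 were lower without replicates 2 and 7 (median -0.20). GZMA, a protease of cytotoxic lymphocytes, had 0 to 1.88 CPM in the controls (median 0.600) and 0.649 to 6.08 CPM at 10000 IU/kg (median 2.24). Its log2 fold change was 1.90 ± 0.75 from at most 49 counts, and the files hold a pair of identifiers with this symbol, so its reads may be split. CD163 of macrophages and PARP14, an interferon-induced enzyme, stood at 0.59 ± 0.33 (w/o 2,7: 0.16) and 0.58 ± 0.28 (w/o 2,7: 0.23). The few tested blood cell genes (5) and Schwann cell genes (4) had medians of 0.02 and 0.02 (w/o 2,7: -0.0015 and -0.08), with S100A12, ALAS2 and MBP at -0.57, 0.42 and 0.14. The mean log2 CPM and the median change also differed in sign for the calcium, glycolysis, myogenesis, blood cell and Schwann cell lists. Their differences of means were -0.04, 0.003, -0.02, -0.26 and -0.27. Without replicates 2 and 7 these differences were 0.10, 0.20, 0.07, -0.12 and -0.25. Each then had the same sign as the median of its list without these libraries. In other lists the signs then came to differ. These were the slow-twitch, vitamin D metabolism, TCA cycle, protein degradation and adipocyte lists. Their differences of means were 0.20, 0.05, -0.02, 0.02 and 0.03, beside medians of -0.07, -0.05, 0.04, -0.04 and -0.03. For the textbook targets the difference of means and the median still differed in sign, at -0.19 and 0.04.

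Liver transcripts followed replicates 2 and 7. Of 29 tested genes 28 were higher, with a median of 0.32, and without these 2 libraries 26 of 29 were lower, with a median of -0.11. ITIH2 and TAT, made by liver cells, stood at 0.65 ± 0.40 (w/o 2,7: -0.04) and 0.58 ± 0.41 (w/o 2,7: -0.13), ALB at 0.48 ± 0.38 (w/o 2,7: -0.01) and APOC3, an apolipoprotein, at -0.14 ± 0.55 (w/o 2,7: -0.32). Of 17 lung and airway genes 5 were tested, with a median of -0.87 (w/o 2,7: -0.42). SFTPD and SFTPC, which encode surfactant proteins, stood at -1.83 ± 1.07 and -0.89 ± 1.13, and FOXJ1, a factor of ciliated cells, at 0.80 ± 0.94 (w/o 2,7: 1.21). SFTPC ran from 0.812 to 82.1 CPM in the controls and from 0 to 69.7 CPM at 10000 IU/kg, so single libraries set these values. How liver and lung transcripts came into muscle libraries was not tested.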

How the data were processed

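The deposited values were raw counts (whole reads assigned to each Ensembl pig gene, 1 file per pig), and no normalization by the authors was found in them. Per the labels, RNA was extracted with a column kit and sequenced from the 3' end. The submitters' processing notes name FastQC; aligner, counter, genome build and annotation are not given in the sources used here, so no coordinates are reported. Summary lines and spike-ins were left out of library sizes and tests. Of 25880 identifiers 25879 were in all files, and an Ensembl name table gave symbols.

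Counts of the 16 libraries were filtered with filterByExpr of edgeR 4.0.16 (minimum count 10, minimum total 15), scaled by TMM and fitted with glmQLFit and glmQLFTest (robust, diet as the only term) in R 4.3.3. P-values were adjusted over all 10256 genes (Benjamini-Hochberg, threshold 0.05). Fold changes have a prior count of 0.125, and list means of log2 CPM a prior count of 2. Library measures were compared by exact permutation tests over 12870 splits, two-sided. The smallest chi-square per degree of freedom between any pair of libraries was 35.2, so none was counted as a duplicate. The fit was also run on simulated counts as a check of the code, and its power at the spread of these data is not reported here.

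The members and the 31 gene lists (977 symbols, 162 of them without an identifier, among them MB, TTN and VWF) were chosen with earlier results of these data known. Named genes are the 10 with the smallest p in each direction, the 2 with the smallest p in each list, a fixed group of vitamin D, muscle, fat, liver and lung genes, and genes said to be named after their values were seen. This leaves out 6 picked genes, which are not reported here. Alternatives were DESeq2 1.42.0, limma 3.58.1 voom, other scaling and filters, all libraries but replicate 27 in the fit, replicate 27 kept, the assigned share of reads as a covariate, and each library left out. Leaving out replicates 2 and 7 of the 10000 IU/kg diet, the libraries under 40% assigned reads, and the mean of liver transcripts as a covariate were added after the data were seen.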

Additional observations from a re-analysis of the deposited data

Results flagged for a closer look

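Single libraries far from the other 7 of their diet were looked for with Dixon's test in 272 groups of values. It marked 12, where chance alone marks about 1 in 20 groups. Among the controls, replicate 14 had 77.5 CPM of ISG15 and replicate 10 had 190 CPM of SMYD1, both above the rest, while replicate 10 had 0.162 CPM of IGF1R, replicate 3 had 0.108 CPM of ALAS2 and replicate 23 had 0.233 CPM of TRARG1, all under the rest. Control replicate 3 had the highest mean log2 CPM of insulin signalling genes, 5.19. At 10000 IU/kg, replicate 7 stood lowest for GOT1 at 19.01 CPM, for SMYD1 at 0.760 CPM and for the mean log2 CPM of myogenesis and growth genes at 3.56. Replicate 13 stood highest for the summed lung transcripts at 208 CPM and for their mean log2 CPM at 4.10. Replicate 21 stood highest for KLF10 at 126 CPM.

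The library left out of the comparison, replicate 27 of the 10000 IU/kg diet, held counts above all controls for the 4 genes that chose it, 15866 for ADIPOQ, 60164 for TRARG1, 62608 for FASN and 107124 for SCD.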

How the results depend on the processing

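No paired analysis was possible because animal numbers are not shared between diets and litters are not in the labels. No gene passed the adjusted threshold in edgeR under any setting, and DESeq2 gave 1. Genes at an unadjusted p under 0.05 were 1448 (755 higher, 693 lower) with no filter on low counts. Voom gave 92 higher and 138 lower. Fewer were lower with 24 libraries in the fit (52) and with replicate 27 kept (46), and fewer higher with the assigned share of reads as a covariate (91) and without replicates 2 and 7 (96). With 1 library left out, all such genes ranged from 135 to 368, those higher from 74 to 220 (74 without replicate 2 of 10000 IU/kg), those lower from 53 to 148 (148 without its replicate 13, 124 without 20), and genes without overlap from 3 to 6. With replicate 27 kept, 0 genes did not overlap, the ACTA1 share differed by -0.888 percentage points and the mitochondrial share by -2.29, the adipocyte median was 1.02, and MMP14, GPX3, PECAM1 and S100A12 turned to 0.62, 2.60, 0.14 and 0.69. The Y-linked list, with 1 gene tested (EIF1AY, 0.51), had a median of 1.74 with no filter. Without replicates 2 and 7, NCOA2, ITIH2, TAT, EIF1AY, PDIA3 and ALB turned to -0.12, -0.043, -0.13, -0.0205, -0.30 and -0.013, and ACTA1 and ATP2A2 to 0.062 and 0.019. With the liver covariate PDIA3 and CKM turned to -0.14 and 0.050, with the share covariate PDIA3 to -0.13, and in voom APOC3 to 0.033. With 1 library left out, differences of library measures ranged from -0.930 to 1.73 points (ACTA1 share), -3.36 to -2.33 (mitochondrial share), -3.56 to 0.138 (share of the 10 highest genes), -35.4 to 109.4 CPM (haemoglobin), -42.9 to 1.10 CPM (lung) and -124190 to 1571200 counts (total). The lung list median ranged from -2.68 to -0.19. Genes that turned were PPP1R3A (-0.023 to 1.12), RXRA (-0.00076 to 0.16), PDIA3 (-0.19 to 0.31), ACTA1 (-0.35 to 0.16), TRARG1 (-0.34 to 0.68) and APOC3 (-0.49 to 0.30). The other 91 of 97 named genes kept their direction there, and 942 of 958 values did in the other settings. The causes were not tested.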
